A study of Mus musculus with 16 samples.

Results

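Regulatory T cells (Tregs) from injured skeletal muscle were compared with Tregs from the spleen of mice without a transgenic T cell receptor, across all genes of the count table. The comparison rests on the columns labelled WT muscle Treg and WT spleen Treg, which are 4 of the 16 libraries of the series, 2 per tissue. All 4 came from mice aged 6 to 8 weeks of the B6 strain labelled mTreg24 TCR-tg- Foxp3 GFP+, so they lack the transgenic receptor and carry the Foxp3-GFP reporter. Total Tregs, which are polyclonal, were sorted 3 days after injury with cardiotoxin, a snake venom component that destroys muscle fibres. That the WT spleen Tregs also came from injured mice is given by the series' design text and not by their own labels. The labels do not say whether the libraries of a tissue came from separate animals or from pools, nor whether muscle and spleen came from the same animals. For 1 question the same tissue comparison in Tregs of mice carrying the mTreg24 receptor (Tg, also Foxp3-GFP, with Vβ8-positive Tregs sorted from muscle and from the spleen of injured mice, 2 libraries each) is set beside it. The fit also held 2 libraries of Tg Tregs from the spleen of uninjured mice, so the p-values rest on the spread within 5 Treg groups of 2 libraries, and part or all of that spread may be technical.

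As background, Tregs are CD4 T cells that depend on the transcription factor Foxp3 and restrain other immune cells. Tregs of the spleen circulate through lymphoid organs and many are in a resting state, with homing receptors and transcription factors shared with resting T cells. Tregs that accumulate in injured muscle are known for activation markers, for the IL-33 receptor and for secreting the growth factor amphiregulin, which acts on muscle progenitor cells. Tissue must be taken apart before cells are sorted from it, and genes of the immediate early and heat shock families are known to respond to such handling.

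Levels are TMM-scaled CPM (counts relative to library size), and a gene is called where edgeR's quasi-likelihood test gave a Benjamini-Hochberg adjusted p under 0.05 over all 13188 tested genes. By that rule 16.2% of them were called, 9.38% higher and 6.87% lower in muscle, which is the background for the counts that follow. Rose and fell refer to muscle against spleen. The WT muscle libraries held 4625354 and 9116800 counts and the WT spleen libraries 1986700 and 4502813. WT spleen replicate 2 stood apart in immunoglobulin transcripts, which took 1.02% of its counts against 0.147% to 0.178% in the other 3 libraries. Igkc, the kappa light chain constant region, was at 17.4 and 36.2 CPM in muscle and at 14.9 and 1770 CPM in spleen. Plasma cell markers summed to 1.81 and 1.35 CPM in muscle, 10.1 CPM in spleen replicate 1 and 4760 CPM in spleen replicate 2. The WT muscle libraries differed from each other more than those of any other Treg group, with a chi-square of 28.9 per degree of freedom against 5.47 to 9.02. That measure grows with the number of counts, and WT muscle replicate 2 had the most. On scaled values 697 of 13188 genes were at least 4-fold apart between the WT muscle libraries, against 203 to 434 in the other groups. Counts are therefore also given without single libraries where this moved them by over 1.5 times or ended a call. Genes that passed only when a single library was left out are mostly not marked as such below. Among them are S1pr1, Ikzf2, Cd4, Tnf, Nkg7, Rel and Cxcl10, so that they did not pass depends on single libraries.

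Markers of other cell types were checked in 11 lists. Muscle fibre markers summed to 367 and 321 CPM in muscle and 234 and 230 CPM in spleen, and 8 of their 21 members, among them Myl1, Tnnc2 and Mb, had 0 counts in all 4 libraries. Of 6 tested members 1 was higher in muscle and 2 were lower. Neb, encoding the giant sarcomere protein nebulin, was higher, at 309 and 267 CPM in muscle against 108 and 99.2 CPM in spleen. Ttn, which encodes titin, was lower, at 33.4 and 26.4 CPM against 63.9 and 70.5 CPM, and so was the muscle enolase Eno3, at 7.91 and 12.4 CPM against 38 and 40.7 CPM. Without Neb the sums were 58 and 53.8 CPM in muscle and 125 and 131 CPM in spleen. B cell markers summed to 1510 and 1750 CPM in muscle and 1680 and 3210 CPM in spleen, and 0 of 11 tested members were higher and 3 lower in muscle (Ms4a1, Bank1 and Ighd), or 1 lower without spleen replicate 2 or muscle replicate 2 and 7 lower without spleen replicate 1. Without Ighm the B cell markers summed to 54.9 and 79.6 CPM in muscle and 89.4 and 1920 CPM in spleen. Ms4a1, encoding CD20, was at 0 CPM in 3 libraries and at 13.5 CPM in spleen replicate 2, so its call rests on that library. Macrophage markers summed to 274 and 483 CPM in muscle and 426 and 457 CPM in spleen, with 3 of 15 tested members lower in muscle (Adgre1, Slc40a1 and Apoe), 0 lower without spleen replicate 2 and 5 lower without spleen replicate 1. Most of that sum came from Ctss, and without it the other macrophage markers summed to 21.3 and 27.6 CPM in muscle and 123 CPM in both spleen libraries. Dendritic cell and MHC class II markers summed to 64.6 and 147 CPM in muscle and 74 and 187 CPM in spleen, most of it from Cd74 in the muscle libraries, with 1 of 7 tested members higher (Xcr1) and 1 lower (H2-Eb1). Both lost their calls without spleen replicate 2, Xcr1 also without spleen replicate 1 or muscle replicate 2. Xcr1 was at only 1.58 and 3.07 CPM in muscle and had 0 counts in spleen. Erythroid and platelet markers summed to 9.72 and 10.3 CPM in muscle and 73.6 and 105 CPM in spleen, while 6 of 14 members, globins among them, had 0 counts in all 4 libraries. Most of the spleen sums came from Gata1, and without it the sums were 5.87 and 8.59 CPM in muscle and 12.5 and 14.1 CPM in spleen. Neutrophil markers summed to 7.01 and 21.7 CPM in muscle and 0.962 and 1.06 CPM in spleen, and S100a8, Retnlg, Mmp8 and Camp had 0 counts in all 4. Ltf, encoding lactoferrin, was the 1 tested member and was called higher, at 2.71 and 21.1 CPM in muscle and 0.962 and 0 CPM in spleen, a call lost without muscle replicate 2 or spleen replicate 2. Satellite cell, fibroblast and CD8 or natural killer cell markers summed to under 41 CPM in every library, and endothelial markers to between 181 and 271 CPM, nearly all of it from Pecam1. The part of such cells in the results that follow was not tested. In sorted bulk cells, fewer cells of a type and less RNA per cell cannot be told apart.

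**Figure D1:**
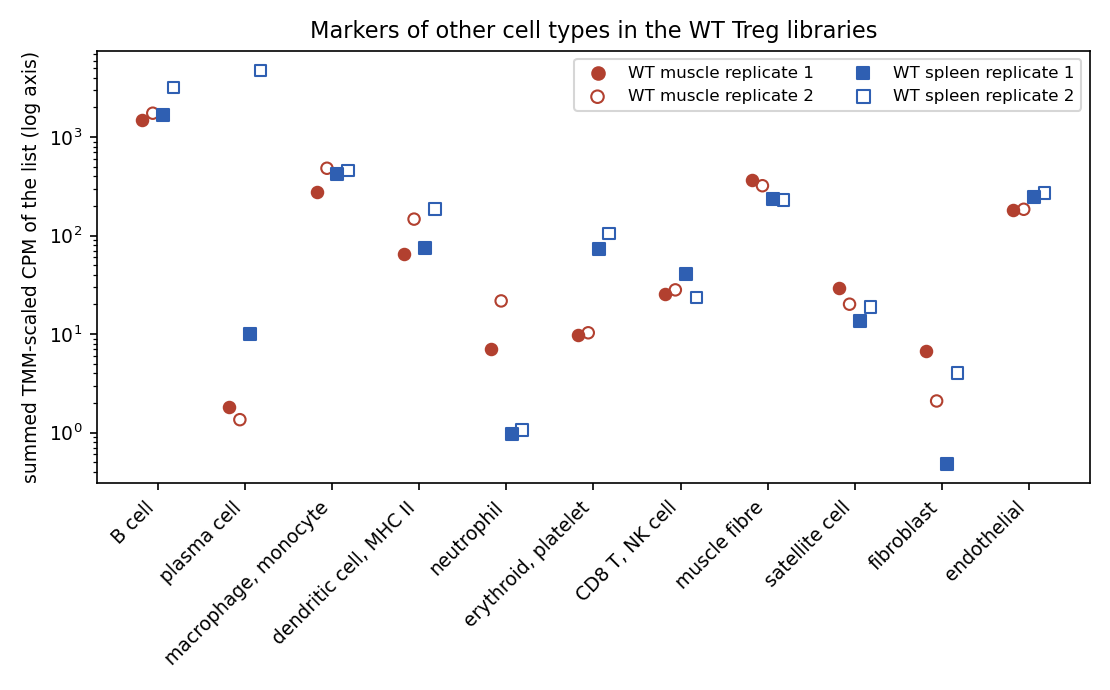
Summed TMM-scaled CPM (log axis) of 11 lists of markers of other cell types in the 4 WT Treg libraries; filled and open symbols are replicates 1 and 2. Plasma cell markers reach 4760 CPM in spleen replicate 2 and stay at or below 10.1 CPM in the other 3 libraries.

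Muscle Tregs differed broadly from spleen Tregs. In all 2143 genes were called, 1237 higher in muscle and 906 lower. Among called genes, 315 were at least 4-fold higher and 337 at least 4-fold lower in muscle (log2 of 2 or more), and the median log2 fold change was 1.09 for the higher and -1.44 for the lower ones, against -0.04 over all tested genes. The genes with the largest increases among those well above the detection limit encode secreted factors (Areg, Il10, Gzmb, Mmp9), chemokine receptors (Ccr2, Ccr3, Cxcr6), transcription factors of the AP-1 family (Fos, Fosb, Fosl2), the nuclear envelope protein lamin A (Lmna), the G protein regulators Rgs2 and Gem, the protease inhibitor Ctla2a and the membrane protein Myadm. These 15 genes had log2 fold changes of 3.88 to 5.91, the smallest being that of Cxcr6. The 15 largest decreases ran from -4.73 for Igfbp4, a binding protein of insulin-like growth factors, to -2.75 for Pdlim1, a cytoskeletal adaptor, and included the survival factor Bcl2, the orphan receptor Gpr83, and the transcription factors Tcf7, Id3 and Bach2. Library values of the tissues did not overlap for 2141 of the called genes, against 55.9% of all tested genes. A lack of overlap in a called gene, where given below, therefore adds no support beyond the call. The 15 largest changes per direction were also chosen for it. Without spleen replicate 2 the count of called genes was 887, without muscle replicate 2 it was 1347, without spleen replicate 1 it was 1515 and without muscle replicate 1 it was 2768. A fit of the 4 WT libraries alone called 1046, 682 higher and 364 lower. The 4 fits without a library all called 727 of the genes, 514 higher and 213 lower. Of the 30 genes with the largest changes, 3 lost their call without single libraries. Ccr3 was at 4.70 without spleen replicate 2. Mmp9 was at 4.54 without muscle replicate 1, 3.32 without muscle replicate 2 and 2.99 without spleen replicate 2. Ssbp2, among the decreases, was at -3.32 and -2.89 without spleen replicate 1 or 2.

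**Figure D2:**
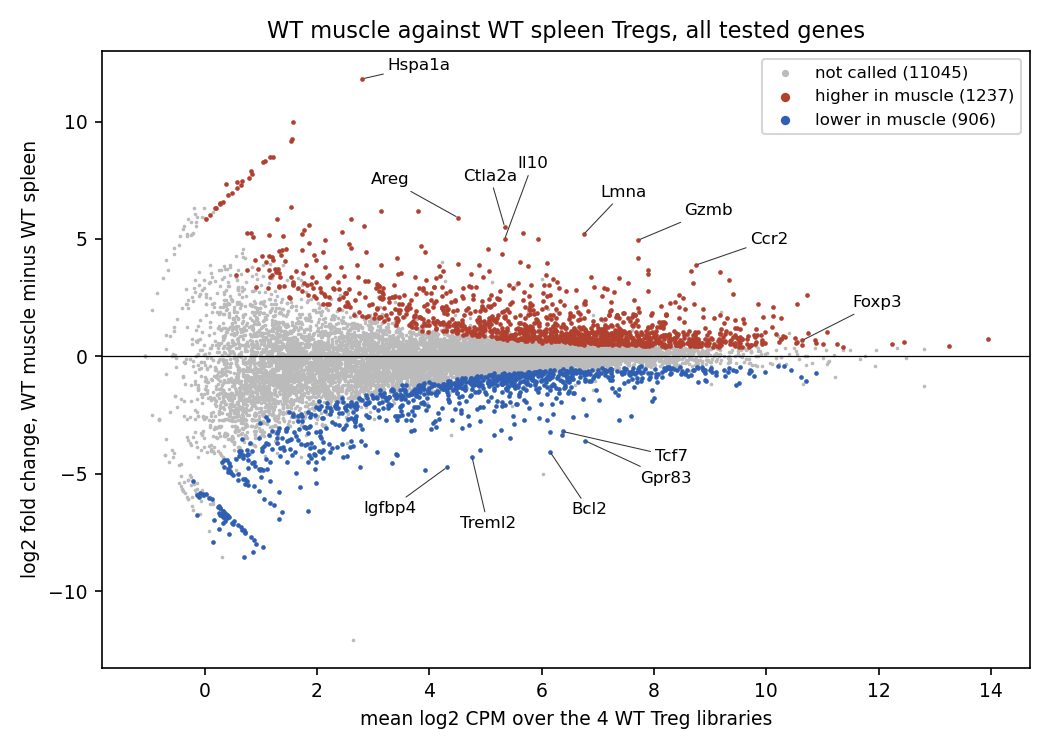
Log2 fold change (WT muscle minus WT spleen Tregs) against mean log2 CPM over the 4 libraries for 13188 tested genes, with 1237 called higher in red and 906 called lower in blue. The diagonal streaks at the left are genes with 0 counts in a tissue, whose fitted fold changes, that of Hspa1a included, are not bounds.

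The genes that define Tregs were present in all 4 libraries, which were sorted by the Foxp3 reporter. Foxp3 (chromosome X, 7573644 to 7595245, GENCODE M21 on GRCm38, the mm10 build) was at 1880 and 2170 CPM in muscle and at 1350 and 1180 CPM in spleen. Its muscle values were above both spleen values, a log2 fold change of 0.68 ± 0.13 (SE; adjusted p = 0.00254). The T cell genes Cd4 (754 and 882 against 616 and 652 CPM, adjusted p = 0.0591) and Cd3e (727 and 866 against 868 and 840 CPM, adjusted p = 0.636) did not pass. The same held for Il2ra, the IL-2 receptor alpha chain, at 769 and 645 CPM in muscle and 637 and 753 CPM in spleen (adjusted p = 0.947). The other IL-2 receptor chain measured as a Treg marker, Il2rb, was at 1100 and 1370 CPM in muscle and 1240 and 1250 CPM in spleen. Ikzf2, which encodes Helios, was at 527 and 357 CPM in muscle and 511 and 587 CPM in spleen (adjusted p = 0.223).

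Of 17 Treg identity genes, 6 rose and 4 fell, and their median log2 fold change was 0.04 (-0.03 with upper-quartile scaling). Ctla4, an inhibitory receptor by which Tregs take CD80 and CD86 from other cells, was at 1740 and 2340 CPM in muscle and 436 and 423 CPM in spleen, a log2 fold change of 2.25 ± 0.14 (SE; adjusted p = 1.86e-07). Entpd1, which encodes the ATP-degrading enzyme CD39, was at 241 and 303 CPM in muscle and 95.2 and 65.6 CPM in spleen (1.78 ± 0.20). Tnfrsf18, encoding the receptor GITR, was at 804 and 1010 CPM in muscle and 435 and 424 CPM in spleen (1.08 ± 0.18). All 3 were higher in both muscle libraries than in either spleen library, as were Cd5 (0.61) and Socs2 (0.98), which with Foxp3 make up the 6. Gpr83, a receptor known as a Treg marker, moved the other way, from 354 and 422 CPM in spleen to 44.5 and 21 CPM in muscle (-3.60 ± 0.31; adjusted p = 1.39e-05). Izumo1r, encoding folate receptor 4, was at 481 and 507 CPM in muscle and 1070 and 1090 CPM in spleen (-1.13 ± 0.12). Lrrc32, which encodes GARP, the surface anchor of latent TGF-beta, was at 133 and 144 CPM in muscle and 469 and 478 CPM in spleen (-1.77 ± 0.40; adjusted p = 0.0244). The libraries of each tissue lay close together for Lrrc32, yet its call was lost when any of the 4 was left out, with values between -1.83 and -1.70. Ikzf4 (-0.70) was the remaining gene that fell, and without spleen replicate 2 the count of lower genes was 2.

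**Figure D3:**
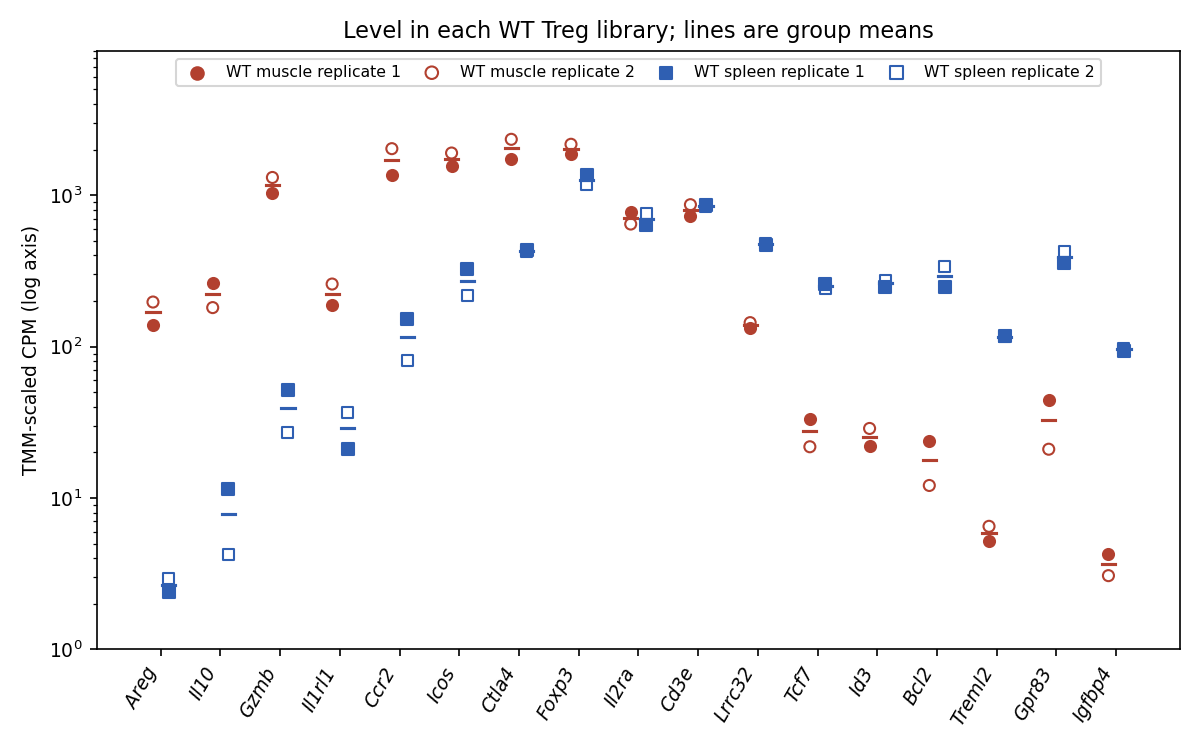
TMM-scaled CPM (log axis) of 17 genes in the 4 WT Treg libraries, muscle in red circles and spleen in blue squares, with filled and open symbols for replicates 1 and 2 and lines at the group means. The tissues overlap for Il2ra and Cd3e and are apart for the other 15 genes.

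Secreted factors of Tregs were among the genes with the largest differences. Areg (chromosome 5, 91139599 to 91148432, forward strand), the gene of amphiregulin, was at 139 and 197 CPM in muscle and 2.40 and 2.95 CPM in spleen. It was 62.7-fold higher in muscle by the means, a log2 fold change of 5.91 ± 0.60 (SE; adjusted p = 0.000278). Il10, an anti-inflammatory cytokine (chromosome 1, 131019845 to 131024974), was at 265 and 181 CPM in muscle and 11.5 and 4.22 CPM in spleen (4.99 ± 0.39; adjusted p = 4.61e-06). Fgl2, a secreted fibrinogen-like protein with suppressive activity, was at 682 and 1030 CPM in muscle and 68.8 and 66.9 CPM in spleen (3.66 ± 0.43). In each of these genes the lower muscle library was several times the higher spleen library. Metrnl, encoding the secreted factor meteorin-like, was at 12.4 and 9.20 CPM in muscle and had 0 counts in both spleen libraries, which makes it at least 10.4-fold higher against a limit of 3 counts per library. Ebi3, a subunit of IL-35 and IL-27, was at 33.9 and 69.4 CPM in muscle and 25 and 19.8 CPM in spleen (1.24 ± 0.33; adjusted p = 0.022), a call that was lost without muscle replicate 2 (0.63), spleen replicate 1 (1.40) or spleen replicate 2 (1.07). These 5 genes were all that rose among 14 tested secreted factors (of 27 listed), and 0 fell, with a median log2 fold change of 1.20. Without muscle replicate 2 the counts were 4 and 1 and the median 0.63, the lower gene being Penk, an enkephalin precursor, at 19 and 68 CPM in muscle and 63.9 and 68 CPM in spleen. Csf2, Il13 and Xcl1 had 0 counts in all 4 libraries. Cxcl10, a chemokine induced by interferon, was at 31.4 and 112 CPM in muscle and 16.3 and 1.90 CPM in spleen (adjusted p = 0.0899).

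The window around the Areg start site is shown because Areg had the largest fold change among the well-expressed genes. It spans chr5:91139349-91139648 on the forward strand of GRCm38.p6 (RefSeq; 250 bases before and 50 after the start), and the capitals mark TGACGTCA, the cAMP response element, which is its own reverse complement and starts 61 bases before the start site.
Areg: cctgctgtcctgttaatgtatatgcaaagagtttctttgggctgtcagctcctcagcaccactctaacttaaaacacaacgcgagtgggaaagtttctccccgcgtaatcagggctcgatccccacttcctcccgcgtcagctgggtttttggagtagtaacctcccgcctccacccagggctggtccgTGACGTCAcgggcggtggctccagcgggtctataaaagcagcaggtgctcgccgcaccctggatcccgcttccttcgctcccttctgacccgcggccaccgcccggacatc
That element was found in 2.03% of the 27025 genes with such a window and in 3.67% of the 9207 tested ones. Of the 15 genes with the largest increases 12 had a window, and Areg was the 1 that held it. The AP-1 motif TGANTCA, searched on both strands, was in the windows of 4 of these 12 (Ctla2a, Lmna, Ccr3 and Gzmb) and in 0 of 13 windows of the genes with the largest decreases, against 5.82% of tested genes. A match is a description of the sequence and no measurement of binding.

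Cytotoxic and type 1 genes contributed Gzmb, the protease granzyme B, at 1040 and 1310 CPM in muscle and 51.9 and 27 CPM in spleen (4.95 ± 0.33; adjusted p = 1.92e-05). Both muscle libraries were far above both spleen libraries. Il12rb1, a chain of the IL-12 and IL-23 receptors, was at 342 and 323 CPM in muscle and 137 and 78.3 CPM in spleen (1.65 ± 0.21). Ifng, the gene of interferon gamma, was low throughout, at 4.97 and 9.20 CPM in muscle and 0.481 and 1.06 CPM in spleen, and its call was lost without muscle replicate 2 or either spleen library (2.53, 2.73 and 3.82). With these, 3 of 14 tested genes rose and 0 fell. Tnf (81.4 and 117 against 49 and 87.6 CPM) and Nkg7 (118 and 38.3 against 37 and 30.4 CPM) did not pass.

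Of 18 tissue Treg factors 13 rose and 0 fell, with a median log2 fold change of 2.00. Id2, an inhibitor of helix-loop-helix factors, was at 191 and 330 CPM in muscle and 42.3 and 33.1 CPM in spleen (2.81 ± 0.27; adjusted p = 2.41e-05). Prdm1, which encodes Blimp-1, a factor of effector Tregs, was at 159 and 176 CPM in muscle and 41.3 and 18.4 CPM in spleen (2.56 ± 0.30). Both were higher in each muscle library than in either spleen library. Runx2, a Runt family factor, was at 75.9 and 88.7 CPM in muscle and 13.5 and 13.7 CPM in spleen (2.60 ± 0.24). Pparg, the factor of fat tissue Tregs, was at 14.5 and 18 CPM in muscle and at 0 and 0.844 CPM in spleen, and Nfil3, a leucine zipper factor, was at 45.2 and 91.4 CPM in muscle and 10.6 and 2.32 CPM in spleen. The call of Nfil3 was lost without muscle replicate 2 (3.04) or spleen replicate 2 (2.71), and that of Pparg without either spleen library. Hif1a, the hypoxia-inducible factor, was at 820 and 1510 CPM in muscle and 327 and 297 CPM in spleen without passing (1.90 ± 0.54; adjusted p = 0.07). It did pass in a fit of the WT libraries alone (1.90). Tbx21, encoding T-bet, was at 30.5 and 76.8 CPM in muscle and 28.8 and 11.2 CPM in spleen (adjusted p = 0.232).

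Of 14 tested factors of resting T cells, 0 rose and 7 fell, with a median of -0.78. Tcf7 (chromosome 11, 52252371 to 52283014), which encodes TCF-1 and keeps T cells in a central, self-renewing state, was at 33.4 and 21.8 CPM in muscle and 261 and 243 CPM in spleen (-3.20 ± 0.38; adjusted p = 0.000525). Id3, a relative of Id2, was at 21.9 and 28.8 CPM in muscle and 248 and 275 CPM in spleen (-3.35 ± 0.21). Its direction was opposite to that of Id2. Lef1, a relative of Tcf7, was at 120 and 136 CPM in muscle and 288 and 343 CPM in spleen (-1.30 ± 0.16). Bach2, a repressor of effector genes, was at 18.1 and 3.56 CPM in muscle and 70.7 and 85.5 CPM in spleen (-2.93 ± 0.55). The highest muscle library stayed below the lowest spleen library for all 4 genes. In a fit of the WT libraries alone Bach2 did not pass (-2.92). Klf2, which drives homing receptors, was at 20.1 and 18 CPM in muscle and 39.4 and 33.8 CPM in spleen (-0.94 ± 0.30; adjusted p = 0.0472) and lost its call without any of the 4 libraries, with values between -1.04 and -0.82. Ets1 (2360 and 2420 against 2290 and 2350 CPM) and Foxo1 (126 and 131 against 170 and 159 CPM) did not pass.

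Among receptors for cytokines, 10 of 24 rose and 2 fell (Il6ra and Ifngr2, chosen for naming after their values were seen), with a median of 0.47. Il1rl1, which encodes ST2, the IL-33 receptor, was at 189 and 259 CPM in muscle and 21.2 and 36.7 CPM in spleen (2.90 ± 0.27; adjusted p = 1.75e-05). Both chains of the IL-18 receptor moved the same way. Il18r1 was at 58.5 and 60.5 CPM in muscle and 19.7 and 20.3 CPM in spleen (1.57 ± 0.24), and Il18rap at 81.4 and 75.4 CPM in muscle and 23.6 and 8.02 CPM in spleen (2.44 ± 0.34). Ifngr1, the ligand-binding chain of the interferon gamma receptor, was at 2180 and 2450 CPM in muscle and 610 and 475 CPM in spleen (2.10 ± 0.14), while Ifngr2 (-0.74) fell. The decoy receptor Il1r2, which binds IL-1 without signalling, was at 59.9 and 119 CPM in muscle and 13 and 4.85 CPM in spleen (3.50 ± 0.76; adjusted p = 0.0262), and its call was lost without muscle replicate 2 (2.93), spleen replicate 1 (4.21) or spleen replicate 2 (2.81). Il4ra (523 and 513 against 546 and 465 CPM) and Ifnar1 (400 and 416 against 414 and 392 CPM) overlapped between the tissues. Without spleen replicate 2, or without muscle replicate 2, 7 receptors rose and 0 fell, and without muscle replicate 1 the lower count was 1.

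Costimulatory and checkpoint receptors went both ways, 9 of 18 rising and 4 falling (median 0.50). Icos, a costimulatory receptor of effector Tregs, was at 1550 and 1900 CPM in muscle and 325 and 219 CPM in spleen (2.67 ± 0.17; adjusted p = 2.05e-07). Havcr2, which encodes TIM-3, was at 56 and 72.6 CPM in muscle and 6.25 and 3.38 CPM in spleen (3.86 ± 0.36), and Klrg1, a receptor of differentiated effector cells, at 376 and 784 CPM in muscle and 48.1 and 81.9 CPM in spleen (3.13 ± 0.41). In contrast Cd96, which competes with TIGIT for CD155, was at 33.4 and 42.2 CPM in muscle and 234 and 229 CPM in spleen (-2.60 ± 0.22). Cd160 (-3.79), Btla (-1.79) and Cd200 (-1.69) also fell, Cd160 without its call when spleen replicate 2 was left out (-3.59). Pdcd1, encoding PD-1, was at 151 and 125 CPM in muscle and 110 and 89.7 CPM in spleen (0.47 ± 0.35; adjusted p = 0.42), and Lag3 overlapped between the tissues (106 and 57.9 against 77.4 and 44.5 CPM).

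In the TNF ligand and receptor families 8 of 20 genes rose and 5 fell (median 0.27). Tnfrsf1b, the TNF receptor TNFR2 that supports Treg expansion, was at 1130 and 1280 CPM in muscle and 447 and 369 CPM in spleen (1.56 ± 0.16; adjusted p = 1.24e-05). Tnfrsf8, which encodes CD30, was at 59.9 and 85.7 CPM in muscle and 14.4 and 6.12 CPM in spleen (2.95 ± 0.36), whereas its ligand Tnfsf8 was at 5.20 and 6.50 CPM in muscle and 48.1 and 46.4 CPM in spleen (-2.99 ± 0.38). Receptor and ligand thus had opposite signs, with no overlap of libraries in either. Tnfrsf10b, the death receptor for TRAIL, was at 52.2 and 37.4 CPM in muscle and 8.17 and 4.22 CPM in spleen (2.94 ± 0.38). Tnfrsf9, encoding 4-1BB, was at 590 and 1150 CPM in muscle and 269 and 273 CPM in spleen (1.68 ± 0.31), a call lost without spleen replicate 1 (1.68) or 2 (1.70). Besides Tnfsf8, the genes that fell were Tnfrsf21, Tnfrsf26 (-1.07), Cd27 (-0.51) and Ltb (-0.68). Tnfrsf21 had 0 counts in muscle and 2.88 and 2.74 CPM in spleen, and its call was lost without any of the 4 libraries. Without spleen replicate 2 the counts were 5 and 2, and the lower count was 2 without spleen replicate 1 and 3 without muscle replicate 1.

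Receptors that direct migration differed in both directions. Of 17 chemokine receptor genes 11 rose and 2 fell, with a median of 2.31. Ccr2, the receptor for monocyte chemoattractants, was at 1370 and 2030 CPM in muscle and 152 and 80.6 CPM in spleen (3.89 ± 0.40; adjusted p = 0.000769). Ccr1, a receptor for inflammatory chemokines, was at 25.3 and 42.9 CPM in muscle and at 0 and 2.11 CPM in spleen (4.61 ± 0.62). Cxcr6, the receptor for CXCL16, was at 86.6 and 137 CPM in muscle and 13 and 4.22 CPM in spleen (3.88 ± 0.49). Ccr3, the eotaxin receptor, varied between its muscle libraries (169 and 549 CPM against 13.9 and 9.71 CPM in spleen). It was at 4.70 without its call when spleen replicate 2 was left out. Cxcr5, which guides cells to B cell follicles, was at 21.5 and 12.4 CPM in muscle and 130 and 113 CPM in spleen (-2.86 ± 0.31; adjusted p = 2.74e-05), and Ccr7 (-1.90), which guides cells to T cell zones, was the other receptor that fell. Gpr183, the oxysterol receptor, was at 247 and 203 CPM in muscle and 190 and 145 CPM in spleen (adjusted p = 0.101).

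In the list of lymphoid homing and egress 10 of 15 genes fell and 2 rose, with a median of -1.90. The list also holds genes of other functions, Igfbp4, Treml2, Nsg2 and Evl among them. Its counts therefore do not describe homing and egress genes alone. Igfbp4 was at 4.29 and 3.07 CPM in muscle and 93.8 and 97.7 CPM in spleen (-4.73 ± 0.28; adjusted p = 1.86e-07). Treml2, a receptor of the TREM family, was at 5.20 and 6.50 CPM in muscle and 117 and 116 CPM in spleen (-4.29 ± 0.42). Nsg2, an endosomal protein gene, was at 6.55 and 8.10 CPM in muscle and 115 and 117 CPM in spleen (-3.97 ± 0.27). The spleen libraries lay close together in all 3 genes and far above both muscle libraries. Evl, an actin regulator, was at 9.27 and 6.87 CPM in muscle and 63.5 and 70.7 CPM in spleen (-3.07 ± 0.30), and Ly6c1, a surface marker of resting and memory T cells, at 43.8 and 39 CPM in muscle and 164 and 152 CPM in spleen (-1.93 ± 0.23). Cd69 (2.01), a receptor that opposes egress, and P2ry10 (1.24) were the genes that rose and were named after their values were seen. S1pr1, the egress receptor itself, was at 349 and 486 CPM in muscle and 524 and 509 CPM in spleen (adjusted p = 0.19).

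Integrins, the receptors for matrix and for other cells, rose in 8 of 16 tested genes and fell in 2 (Itga4 and Itga6, median 0.76). Itgae, which encodes the CD103 chain that binds E-cadherin, was at 869 and 1640 CPM in muscle and 140 and 150 CPM in spleen (3.11 ± 0.26; adjusted p = 2.57e-05). Its partner chain Itgb7 varied widely between the muscle libraries, at 760 and 2750 CPM against 863 and 1090 CPM in spleen (adjusted p = 0.631). The collagen and laminin receptor chains Itga2 (42.3 and 36.6 against 11.5 and 8.23 CPM, log2 2.03 ± 0.34) and Itga3 (31 and 30.9 against 5.77 and 7.81 CPM, 2.14 ± 0.34) were higher in both muscle libraries. Itgav, part of the integrins that activate TGF-beta, was at 113 and 63.7 CPM in muscle and 35.1 and 39.5 CPM in spleen (1.23 ± 0.26). Itgal was at 680 and 715 CPM in muscle and 621 and 591 CPM in spleen (adjusted p = 0.285). Without muscle replicate 2, or without spleen replicate 2, 5 integrins rose and 1 fell, and 1 fell without spleen replicate 1.

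Transcripts of the T cell receptor complex differed by small amounts. Of 21 genes of the receptor and its proximal signalling 5 rose and 2 fell (median 0.10), with log2 fold changes between -0.71 and 0.85. Trac, the alpha chain constant region, was at 915 and 1170 CPM in muscle and 631 and 609 CPM in spleen (0.75 ± 0.15; adjusted p = 0.0037), and Trbc2, a beta chain constant region, at 532 and 600 CPM in muscle and 917 and 839 CPM in spleen (-0.63 ± 0.14). Lck, the kinase that starts receptor signalling, overlapped between the tissues (1370 and 1610 against 1690 and 1520 CPM). The adaptors Cd6 (0.85), Sh2d2a (0.83) and Lcp2 (0.60) and the chain Cd247 (0.38) were the others that rose, and Txk (-0.71), a Tec family kinase, the other that fell. Txk lost its call without muscle replicate 2 (-0.54), spleen replicate 1 (-0.61) or spleen replicate 2 (-0.78), and without any of these 3 libraries 1 gene of the list fell.

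The AP-1 and early response genes are induced by receptor signalling and also by stress. Of 13 tested AP-1 factors 7 rose and 1, Bach2, fell (median 1.22). Fos was at 893 and 899 CPM in muscle and 43.8 and 53 CPM in spleen (4.20 ± 0.18; adjusted p = 5.28e-09). Fosl2, which encodes FRA-2, was at 174 and 140 CPM in muscle and 6.73 and 6.33 CPM in spleen (4.59 ± 0.23), and Junb, a dimer partner of these factors, at 3580 and 4810 CPM in muscle and 743 and 644 CPM in spleen (2.60 ± 0.18). Muscle and spleen libraries were far apart in all 3. Of 17 early response genes 8 rose and 1, Egr2 (-1.89), fell. Nr4a1, which encodes the nuclear receptor NUR77, was at 1700 and 2320 CPM in muscle and 229 and 194 CPM in spleen (3.25 ± 0.23), and its relatives Nr4a2 (3.33 ± 0.38) and Nr4a3 (2.71 ± 0.36) also rose. Egr1, another immediate early factor, did not follow them, at 94 and 126 CPM in muscle and 115 and 76.4 CPM in spleen (adjusted p = 0.547). Without muscle replicate 2 the lower count was 2. Egr2 was at 18.3 and 19.4 CPM in muscle and 79.8 and 61.4 CPM in spleen.

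Feedback inhibitors of signalling were among the genes that rose. In the NF-kB list 9 of 16 genes rose and 0 fell (median 0.64). Nfkbia, Nfkbid and Nfkbiz, of the IkB family, led with Tnfaip3. Nfkbia, which encodes the inhibitor IkB alpha, was at 1730 and 2350 CPM in muscle and 658 and 571 CPM in spleen (1.73 ± 0.21). Nfkbid was at 457 and 820 CPM against 93.8 and 89.9 CPM (2.80 ± 0.35) and Nfkbiz at 576 and 794 CPM against 148 and 139 CPM (2.26 ± 0.16). Tnfaip3, encoding the ubiquitin-editing enzyme A20, was at 1030 and 1910 CPM in muscle and 117 CPM in both spleen libraries (3.65 ± 0.49; adjusted p = 0.00471), and lost its call without spleen replicate 2 (3.66). The subunits Rela (197 and 228 against 186 and 191 CPM), Rel (253 and 177 against 172 and 180 CPM) and Nfkb1 (232 and 143 against 166 and 187 CPM) did not pass. Without spleen replicate 2, 3 genes of the list rose. Among the phosphatases that switch off MAP kinases, Dusp1 was at 1750 and 2260 CPM in muscle and 154 and 181 CPM in spleen (3.58 ± 0.27), and Dusp4 at 208 and 234 CPM in muscle and 20.2 and 20.1 CPM in spleen (3.46 ± 0.22). Their list had 5 of 12 tested genes higher and 0 lower, or 3 higher without spleen replicate 2. Of 18 genes of cAMP feedback and of regulators of G protein signalling 9 rose and 3 fell (median 0.82), or 0 fell without spleen replicate 2. Rgs2 was at 244 and 362 CPM in muscle and 9.62 and 6.75 CPM in spleen (5.27 ± 0.41), and Crem, a cAMP-responsive repressor, at 316 and 429 CPM in muscle and 41.8 and 32.1 CPM in spleen (3.36 ± 0.20). The 3 that fell were Pde7a, Rgs10 (-0.69) and Ptger2 (-1.22), and Pde7a was without its call when muscle replicate 2 (-1.48) or spleen replicate 2 (-1.59) was left out.

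Of 25 genes that respond to tissue dissociation 21 rose and 0 fell, with a median of 1.77, and their summed level was 14900 and 19100 CPM in muscle and 4690 and 3990 CPM in spleen. Most of its members, such as Fos, Junb, Egr1, Ier2, Dusp1 and Nfkbia, are also in the lists above or in the heat shock list, so they are counted in both. The 4 that did not pass were Ier2 (117 and 385 against 74.5 and 102 CPM), Socs3 (247 and 300 against 419 and 219 CPM), Egr1 and Jund (7.91 and 10.8 against 6.25 and 4.22 CPM). The tissue and the way it was prepared differ together between the groups and cannot be told apart.

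Heat shock genes are chaperones that hold or refold damaged proteins. Of 22 such genes 11 rose and 1, the regulator Hsf1 (-0.70), fell, with a median of 0.66, or 7 and 0 without spleen replicate 2, and Hsf1 was also not called without muscle replicate 1 or spleen replicate 1. Hspa1a (chromosome 17, 34969190 to 34972156, reverse strand), which encodes an inducible HSP70, was at 72.3 and 143 CPM in muscle and had 0 counts in both spleen libraries. Taking 3 counts per library as the limit for spleen, its muscle level was at least 104-fold higher. Its near-identical neighbour Hspa1b (chromosome 17, 34956436 to 34959238, reverse strand) was at 16.3 and 18.2 CPM in muscle and had 0 counts in spleen, at least 16.6-fold higher. Other members differed by less. Hspa8, a constitutive chaperone, was at 1470 and 1770 CPM in muscle and 914 and 753 CPM in spleen (0.96 ± 0.14), Dnajb1, a cochaperone, at 242 and 270 CPM in muscle and 137 and 121 CPM in spleen (1.00 ± 0.16), and Bag3, another cochaperone, at 45.2 and 69.7 CPM in muscle and 17.3 and 13.3 CPM in spleen (1.94 ± 0.35). Hspa4 (294 and 296 against 246 CPM in both) and the mitochondrial Hspa9 (145 and 153 against 154 and 178 CPM) did not pass.

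The start windows of Hspa1a and Hspa1b are shown because both had 0 counts in spleen and were measured in muscle, and because their likeness limits how reads are divided between them. They span chr17:34972107-34972406 and chr17:34959189-34959488 on the reverse strand of GRCm38.p6 (RefSeq), differ in 4 of 300 bases (98.7% identical), and the capitals mark a match to GAANNTTC, 2 inverted units of the heat shock element, starting 104 bases before each start site.
Hspa1a: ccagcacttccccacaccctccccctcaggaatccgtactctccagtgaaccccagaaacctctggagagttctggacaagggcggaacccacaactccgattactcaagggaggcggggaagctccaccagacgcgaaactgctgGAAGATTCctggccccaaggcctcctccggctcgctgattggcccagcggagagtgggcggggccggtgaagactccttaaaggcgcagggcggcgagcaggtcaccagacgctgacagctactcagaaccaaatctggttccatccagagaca
Hspa1b: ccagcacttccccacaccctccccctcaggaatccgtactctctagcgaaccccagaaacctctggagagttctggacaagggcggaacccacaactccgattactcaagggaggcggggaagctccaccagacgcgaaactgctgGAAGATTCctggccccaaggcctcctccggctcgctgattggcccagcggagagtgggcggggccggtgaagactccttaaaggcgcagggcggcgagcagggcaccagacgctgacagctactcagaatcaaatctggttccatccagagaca
Searched as GAANNTTC or TTCNNGAA on both strands, the pair of units was found for 12 of the 17 heat shock genes with a window (70.6%), against 17% of all genes with a window and 14.1% of tested ones. Because the copies are nearly the same, the counts of each in muscle, and so the fold of each, are uncertain.

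The integrated stress and endoplasmic reticulum stress genes rose in 6 of 14 tested cases and fell in 0 (median 0.69). Ppp1r15a, which encodes GADD34 and restores translation after stress, was at 663 and 961 CPM in muscle and 90.9 and 54.5 CPM in spleen (3.51 ± 0.25; adjusted p = 4.67e-06). Atf3, a stress-induced repressor, was at 21.2 and 14.8 CPM in muscle and had 0 counts in both spleen libraries, at least 17.4-fold higher. Both were separated fully between the tissues. Atf4, the central factor of the integrated stress response, was at 234 and 218 CPM in muscle and 129 and 120 CPM in spleen (0.86 ± 0.15), and Hspa5, the main chaperone of the endoplasmic reticulum, at 694 and 791 CPM in muscle and 444 and 432 CPM in spleen (0.76 ± 0.13). Dnajb9 (0.89 ± 0.22) and Asns (3.10 ± 0.84) were the other genes that rose, and both lost their calls without muscle replicate 2 (0.79 and 2.75) or spleen replicate 1 (0.77 and 3.35), Asns also without spleen replicate 2 (2.77). The window of Ppp1r15a, shown as the 1 stress gene of this list with the cAMP response element that also stands before Areg, spans chr7:45526219-45526518 on the reverse strand of GRCm38.p6 (RefSeq), with TGACGTCA in capitals 12 bases before the start site.
Ppp1r15a: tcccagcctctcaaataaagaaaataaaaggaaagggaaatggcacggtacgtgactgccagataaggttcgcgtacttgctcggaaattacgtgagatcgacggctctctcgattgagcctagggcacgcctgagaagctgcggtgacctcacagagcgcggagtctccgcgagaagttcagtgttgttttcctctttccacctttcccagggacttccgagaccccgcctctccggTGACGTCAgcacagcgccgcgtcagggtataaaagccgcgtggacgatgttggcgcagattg
Windows were available for 16 genes of this list, and the element was in 6.25% of them.

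Lamins, annexins, S100 proteins and genes of other families listed with them, such as Lgals3 and Myadm, were called in nearly all cases. The list was chosen with earlier results of these data known, so its share is no test of these families. Of 22 tested genes 20 rose and 0 fell, with a median of 1.75. Lmna (chromosome 3, 88480147 to 88509956), which encodes the lamin A and C proteins of the nuclear envelope, was at 717 and 578 CPM in muscle and 26.9 and 11.2 CPM in spleen (5.20 ± 0.41; adjusted p = 9.52e-05). Anxa1, an annexin that dampens inflammation, was at 46.3 and 123 CPM in muscle and at 0 and 1.69 CPM in spleen (6.19 ± 0.66). The calcium-binding proteins S100a4 (377 and 396 against 74.5 and 32.3 CPM, 2.91 ± 0.29) and S100a6 (935 and 845 against 213 and 86.7 CPM, 2.60 ± 0.35) were higher in both muscle libraries. Lgals3, encoding galectin 3, was at 104 and 137 CPM in muscle and 17.3 and 12.7 CPM in spleen (3.05 ± 0.30). The 2 genes that did not pass were Lmnb1, encoding lamin B1, at 202 and 246 CPM in muscle and 87.5 and 47.1 CPM in spleen (adjusted p = 0.0603), and Emp3 at 360 and 364 CPM against 354 and 273 CPM (adjusted p = 0.395). In a fit of the WT libraries alone Lmnb1 passed (1.76). Without single WT libraries 18 to 19 of the genes rose, the fewest without spleen replicate 1.

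Proteases and adhesion molecules that act on matrix rose in 9 of 20 tested genes and fell in 2 (Cd9 and Icam2, median 0.95). Mmp25, a membrane-bound matrix metalloproteinase, was at 34.1 and 50.3 CPM in muscle and 0.481 and 1.06 CPM in spleen (5.57 ± 0.52; adjusted p = 5.37e-06). Adam8, a membrane protease, was at 346 and 336 CPM in muscle and 50 and 38 CPM in spleen (2.97 ± 0.20), and Cd44, the hyaluronan receptor, at 632 and 806 CPM in muscle and 182 and 154 CPM in spleen (2.10 ± 0.16). Cd9, a tetraspanin, was at 17.6 and 9.08 CPM in muscle and 55.8 and 68.8 CPM in spleen (-2.26 ± 0.30). Cathepsins and their inhibitors rose in 10 of 16 genes and fell in 1 (median 0.75). Ctla2a, an inhibitor of cathepsin L-like proteases, was at 223 and 298 CPM in muscle and 7.69 and 4.43 CPM in spleen (5.53 ± 0.26; adjusted p = 1.52e-08), and Lgmn, the protease legumain, at 171 and 192 CPM in muscle and 49.5 and 24.3 CPM in spleen (2.35 ± 0.27). Cst7, which encodes cystatin F, was at 60.8 and 59.7 CPM in muscle and 119 and 134 CPM in spleen (-1.07 ± 0.18), and Ctss (252 and 455 against 304 and 333 CPM) overlapped between the tissues. The inhibitors Ctla2a and Cst7 thus went in opposite directions.

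Of 21 glycolysis and lactate genes 10 rose and 2 fell (median 0.61). Slc16a3, which encodes the lactate exporter MCT4, was at 75 and 125 CPM in muscle and 20.7 and 19.4 CPM in spleen (2.32 ± 0.26; adjusted p = 2.98e-05). The glycolytic enzymes Tpi1 (334 and 320 against 108 and 78.3 CPM, 1.83 ± 0.16) and Pkm (1600 and 1760 against 799 and 639 CPM, 1.23 ± 0.13) were higher in both muscle libraries, and Gapdh was at 551 and 592 CPM in muscle and 304 and 240 CPM in spleen (1.07 ± 0.15). The 2 genes that fell were Ldhb, at 30.7 and 21.7 CPM in muscle and 57.2 and 56.1 CPM in spleen (-1.12 ± 0.30), and Pdk1 (-1.06). Ldhb lost its call without muscle replicate 2 (-0.87), spleen replicate 1 (-1.10) or spleen replicate 2 (-1.12), and without spleen replicate 2 the counts were 7 and 0, with 1 lower without muscle replicate 2 or spleen replicate 1. In a fit of the WT libraries alone 6 of the genes rose. Of 35 nuclear genes of the respiratory chain 2 rose, Uqcrfs1 (0.59) and Atp5d (0.48), and 0 fell, and neither was called without spleen replicate 2 (0.37 and 0.39), Uqcrfs1 also not without muscle replicate 2 (0.57).

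Of 11 mitochondrially encoded genes 5 fell and 0 rose (median -0.71). Among them mt-Nd5, a subunit of complex I, was at 1070 and 1280 CPM in muscle and 1840 and 2450 CPM in spleen (-0.87 ± 0.15; adjusted p = 0.0011), and mt-Cytb, a subunit of complex III, at 1390 and 1590 CPM in muscle and 2200 and 2680 CPM in spleen (-0.71 ± 0.13). In contrast mt-Co1, a subunit of complex IV, was at 3070 and 3910 CPM in muscle and 3260 and 3690 CPM in spleen (0.01 ± 0.14). Without spleen replicate 2 mt-Nd2 (-0.75), mt-Nd4 (-0.53) and mt-Nd6 (-0.47) lost their calls, which left 2, and mt-Nd6 also lost its call without muscle replicate 1 (-0.60). The share of mitochondrial counts was 0.864% and 1.01% in muscle and 1.29% and 1.59% in spleen. Cytosolic ribosomal protein genes, a family selected by symbol after the data were seen, fell in 34 of 82 cases and rose in 0 (median -0.41), and summed to 33900 and 33500 CPM in muscle and 47100 and 42000 CPM in spleen. Their median stayed between -0.47 and -0.35 under every setting tried, while the count was 11 without spleen replicate 1, 16 without muscle replicate 2 and 15 in a fit of the WT libraries alone.

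Other metabolic genes included Odc1, which encodes ornithine decarboxylase, the first enzyme of polyamine synthesis, at 121 and 123 CPM in muscle and 14.4 and 17.5 CPM in spleen (2.91 ± 0.23; adjusted p = 8.32e-07). With the amino acid transporter subunits Slc3a2 (269 and 319 against 139 and 148 CPM, 1.03 ± 0.14) and Slc38a2 (326 in both against 141 and 126 CPM, 1.29 ± 0.17), 5 of 16 tested genes of amino acid uptake and polyamines rose and 0 fell. The remaining pair, Azin1 and Oaz1, lost their calls without spleen replicate 2 (0.34 and 0.38), which left 3, and Azin1 also without muscle replicate 2 (0.51). Of 12 lipid uptake and storage genes 4 rose and 0 fell, namely Pparg, Dgat1, which makes triglycerides, at 413 and 255 CPM in muscle and 55.8 and 55.1 CPM in spleen (2.59 ± 0.24), Plin2, which coats lipid droplets, at 99 and 120 CPM in muscle and 27.9 and 27.4 CPM in spleen (1.99 ± 0.23), and Cpt1a, the gate of fatty acid oxidation, at 133 and 153 CPM in muscle and 64.4 and 66.3 CPM in spleen (1.13 ± 0.20). Pparg lost its call without spleen replicate 1 (4.23) or 2 (9.08). Of 25 sterol and fatty acid synthesis genes 2 rose and 2 fell, with 1 and 0 without muscle replicate 2 or spleen replicate 1, and 0 were called without spleen replicate 2. In the purine list 1 of 13 genes rose, Entpd1, and 3 fell, with 3 higher without muscle replicate 1 and 2 higher without spleen replicate 1. Art2b, an ADP-ribosyltransferase that modifies P2RX7, was at 48.6 and 43.8 CPM in muscle and 260 and 265 CPM in spleen (-2.51 ± 0.21), P2rx7, the ATP-gated channel, at 97.4 and 87.6 CPM in muscle and 271 and 314 CPM in spleen (-1.66 ± 0.18), and Dpp4 (-0.66 ± 0.18) lost its call without muscle replicate 1 (-0.58) or spleen replicate 1 (-0.47).

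Genes of the BCL2 family, which set the threshold of cell death, differed in both directions. Bcl2 was at 23.7 and 12.1 CPM in muscle and 249 and 337 CPM in spleen (-4.07 ± 0.28; adjusted p = 4.68e-07). Bcl2l1, which encodes the related survival factor BCL-XL, was at 249 and 265 CPM in muscle and 90.9 and 127 CPM in spleen (1.22 ± 0.18), and Pmaip1, encoding the death-promoting protein NOXA, at 68 and 104 CPM in muscle and 22.1 and 11.6 CPM in spleen (2.43 ± 0.31). Library values did not overlap for any of the 3. In all, 4 of 14 tested genes of the family rose and 1 fell, or 2 rose without muscle replicate 2. The family members Bcl2a1b (1.39 ± 0.33) and Bcl2a1d (2.02 ± 0.53) lost their calls without muscle replicate 2 (1.01 and 1.92), Bcl2a1b also without spleen replicate 2 (1.13) and Bcl2a1d also without spleen replicate 1 (1.67). They are near-identical paralogs, so reads can be shared between them. Mcl1, another survival factor, overlapped between the tissues (103 and 117 against 88.9 and 131 CPM).

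Cdkn1a, which encodes the inhibitor p21, was at 87.2 and 122 CPM in muscle and 3.37 and 0.422 CPM in spleen (6.21 ± 0.57; adjusted p = 2.74e-05), and Gadd45b, a stress-induced growth arrest gene, at 457 and 612 CPM in muscle and 70.7 and 37.8 CPM in spleen (3.34 ± 0.28). Both were clearly apart between the tissues. Of 40 cell cycle genes 7 rose and 0 fell (median 0.77). The replication licensing factors Mcm2 (203 and 194 against 108 and 94.3 CPM, 0.97 ± 0.16), Mcm6 (419 and 438 against 248 and 191 CPM, 0.97 ± 0.15) and Cdt1 (127 and 135 against 59.1 and 54.7 CPM, 1.20 ± 0.20) were higher in both muscle libraries. Mki67, the proliferation marker Ki-67, was at 122 and 82.1 CPM in muscle and 47.1 and 27.4 CPM in spleen (1.49 ± 0.36; adjusted p = 0.0199), and lost its call without muscle replicate 1 (1.20) or spleen replicate 2 (1.12). The count moved between 3 without spleen replicate 2 and 24 without spleen replicate 1, and was 4 without either muscle library, with list sums of 2610 and 1320 CPM in spleen and 3660 and 3200 CPM in muscle.

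Interferon response genes rose in 10 of 34 tested cases and fell in 0 (median 0.86), a count set by single libraries. Muscle replicate 2 was the highest in the list sum, at 14400 CPM against 8510 CPM in muscle replicate 1 and 8400 and 6600 CPM in spleen, so the sums of muscle replicate 1 and spleen replicate 1 were close. Bst2, the antiviral protein tetherin, was at 139 and 250 CPM in muscle and 87 and 67.5 CPM in spleen (1.35 ± 0.24; adjusted p = 0.00191), and Isg20, an interferon-induced exonuclease, at 166 and 319 CPM in muscle and 105 and 56.4 CPM in spleen (1.61 ± 0.33). Ly6a, encoding the surface protein SCA-1, was at 1090 and 1670 CPM in muscle and 610 and 321 CPM in spleen (1.57 ± 0.29) and lost its call without muscle replicate 2 (1.24). The count was 24 without muscle replicate 1, 5 without muscle replicate 2, 3 without spleen replicate 2 and 4 in a fit of the WT libraries alone, in which Isg20 did not pass (1.61).

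Among genes of the TGF-beta pathway 5 of 17 rose and 2 fell (median 0.27). Tgif1, a corepressor, was at 326 and 454 CPM in muscle and 49.5 and 57.6 CPM in spleen (2.85 ± 0.18; adjusted p = 1.86e-07). Pmepa1, which sequesters SMAD proteins, was at 42.3 and 34.6 CPM in muscle and 12 and 7.81 CPM in spleen (1.99 ± 0.33), and Smad7, the inhibitory SMAD, at 52.7 and 59.1 CPM in muscle and 17.3 and 22 CPM in spleen (1.49 ± 0.28). Skil (1.00 ± 0.16), another corepressor, and the signal transducer Smad3 (0.76) were the other genes that rose. Lrrc32 and the coreceptor Tgfbr3 fell, Tgfbr3 from 11.5 and 14.4 CPM in spleen to 1.58 and 0 CPM in muscle, a call lost without spleen replicate 2 (-4.00), after which 0 genes of the list were lower, and 1 was lower without any of the other 3 libraries. The receptor Tgfbr2 overlapped between the tissues (132 and 277 against 163 and 207 CPM).

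**Figure D4:**
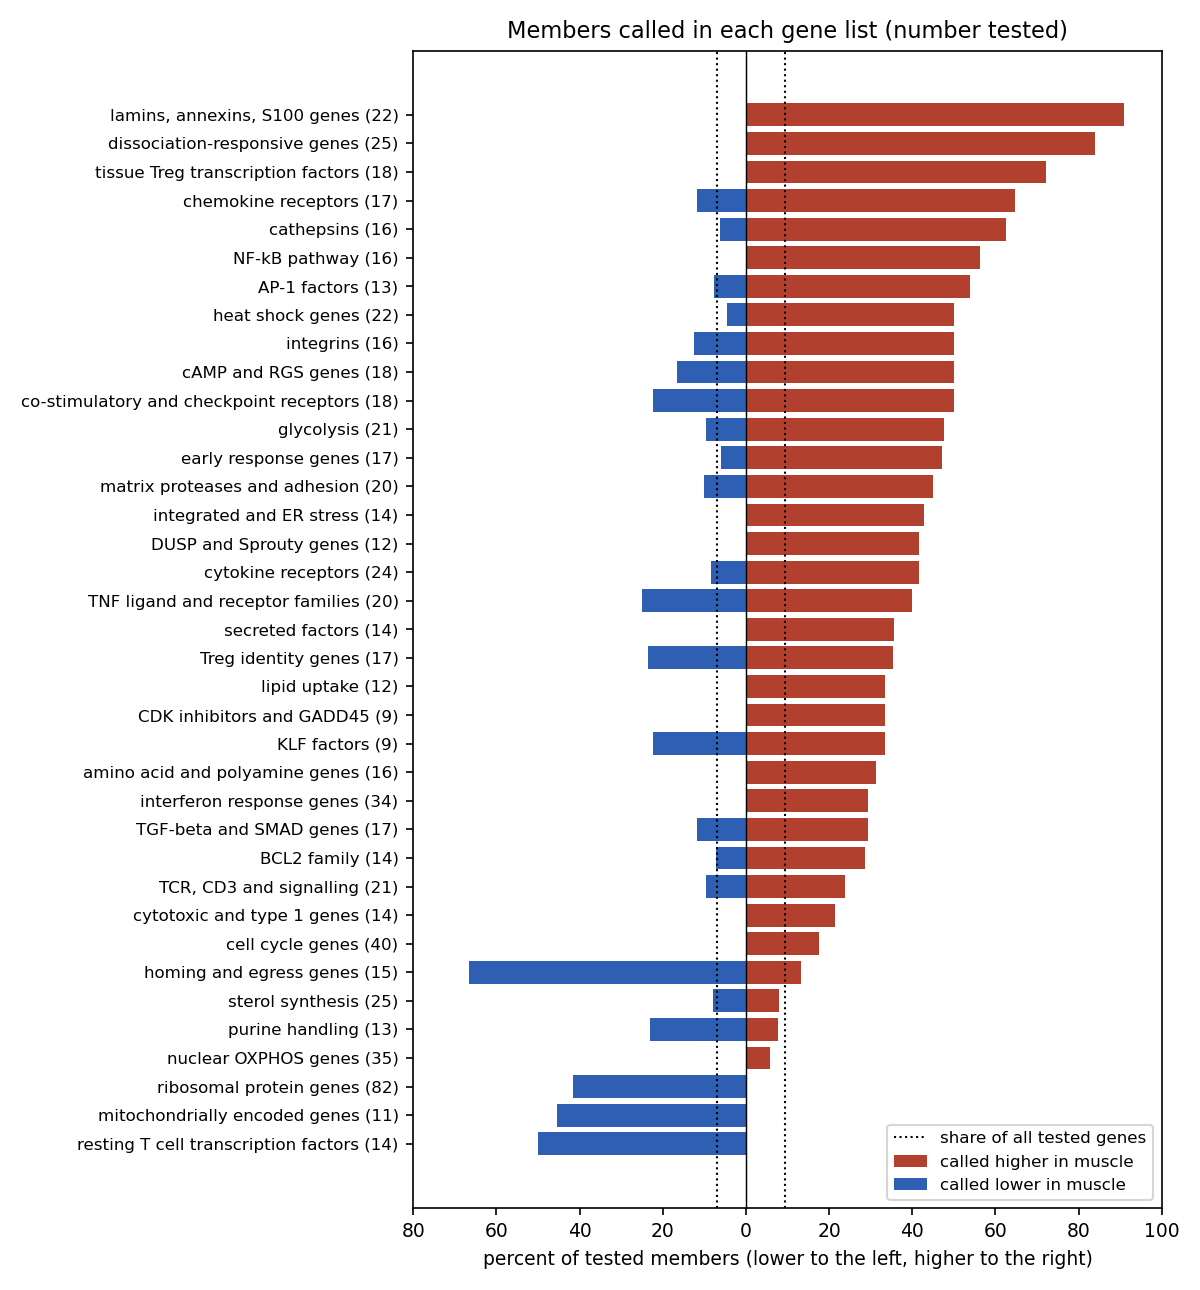
Percent of tested members called higher (red, right) or lower (blue, left) in WT muscle Tregs for 36 gene lists and the ribosomal protein family, with the number tested in brackets. Dotted lines mark the share among all tested genes, 9.38% higher and 6.87% lower. Lists share genes and are not independent, and the homing and egress list also holds genes of other functions.

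Gata1 stood apart among the decreases. It encodes a transcription factor best known in red cell and megakaryocyte precursors, and it lies on chromosome X (7959260 to 7978071). Its level was 3.84 and 1.72 CPM in muscle and 61.1 and 91.2 CPM in spleen (-4.86 ± 0.53; adjusted p = 3.41e-05), so both spleen libraries were far above both muscle libraries. Of the 14 erythroid and platelet markers with which it was listed, Hbb-bs, Hba-a1, Hba-a2, Pf4 and Ppbp were among those with 0 counts in all 4 libraries. Alas2, the first enzyme of heme synthesis in red cell precursors, was at 1.13 and 0 CPM in muscle and 5.77 and 4.43 CPM in spleen (adjusted p = 0.0456), a call lost without muscle replicate 2 (-2.11) or either spleen library (-3.15 and -3.52).

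The tissue difference in WT Tregs was set against the same difference in Tregs of Tg mice, which share no library with it, by testing the difference of the 2 tissue effects in the same fit. Muscle against injured spleen in Tg called 973 genes (7.38% of those tested). The 2 tissue effects differed for 18 genes (0.136%), a count that was 241, 61 or 5 without WT muscle replicate 1, WT spleen replicate 1 or WT spleen replicate 2, and 9, 3 or 4 without Tg muscle replicate 1, Tg spleen replicate 1 or Tg spleen replicate 2. Because Vβ8-positive Tregs were sorted from Tg mice and total Tregs from WT mice, genotype and sort gate cannot be told apart here. Of the 1237 genes called higher in WT muscle 1148 had a log2 fold change above 0 in Tg as well, and of the 906 called lower 837 were below 0. The share of all tested genes with the same sign in WT and Tg was not taken, so these counts have no background to be judged against.

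Myadm, a membrane protein of lipid rafts (chromosome 7, 3289080 to 3300442), had the smallest adjusted p of the 18. It was at 264 and 276 CPM in WT muscle and 15.4 and 18.4 CPM in WT spleen, and at 195 and 266 CPM in Tg muscle and 92.5 and 100 CPM in Tg spleen, so the tissue difference was larger in WT by 2.72 ± 0.26 on the log2 scale (SE; adjusted p = 0.000548). The muscle values of WT and Tg overlapped and the spleen values did not, and the difference was called under all 20 alternative settings. The difference was also larger in WT for Lgals3, with a log2 fold change of 3.05 against 0.57 in Tg, for Ahnak, a large scaffold protein (2.01 against 0.86), and for S100a10, the partner of annexin A2 (1.19 against -0.05). Of the 20 settings, 11 called Lgals3, 13 called Ahnak and 9 called S100a10. These are 4 genes of the lamin, annexin and S100 list, and all 4 were lower in both WT spleen libraries than in either Tg spleen library. The chemokine receptors Cxcr3 (2.07 against 0.43) and Ccr4 (2.31 against 1.05), Fam129a (1.75 against 0.61) and Nhsl2 (2.06 against -0.15) also had the larger difference in WT, and were called in 8, 9, 12 and 12 of the settings.

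In the other direction, the IL-2 receptor chain Il2ra was at 769 and 645 CPM in WT muscle and 637 and 753 CPM in WT spleen, but at 860 and 1260 CPM in Tg muscle and 368 and 370 CPM in Tg spleen, a difference of -1.50 ± 0.23 (adjusted p = 0.0245). The NF-kB subunit Rel was at 253 and 177 CPM in WT muscle and 172 and 180 CPM in WT spleen, and at 558 and 476 CPM in Tg muscle and 175 and 162 CPM in Tg spleen (-1.33 ± 0.23). For both, WT tissues overlapped and Tg tissues did not, and 14 and 12 of the 20 settings called them. Ecm1, a secreted matrix protein, fell in WT muscle (-0.79) and rose in Tg muscle (1.01), and Ly6c1 fell in WT (-1.93) while it was at 0.70 in Tg without passing. P2rx7 was lower in muscle in both, by -1.66 in WT and -3.22 in Tg. Of the 20 settings, 19 called Ecm1, 19 called Ly6c1, 9 called P2rx7 and 10 called Igfbp4. Igfbp4 was at 4.29 and 3.07 CPM in WT muscle and had 0 counts in both Tg muscle libraries, against 93.8 and 97.7 CPM in WT spleen and 70.5 and 68.2 CPM in Tg spleen. The receptor segments Trbv13-2 and Trav9-4, called in 16 and 12 settings, belong to the 18, and Trbv13-2 is a Vβ8 segment on which the Tg sort selected.

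**Figure D5:**
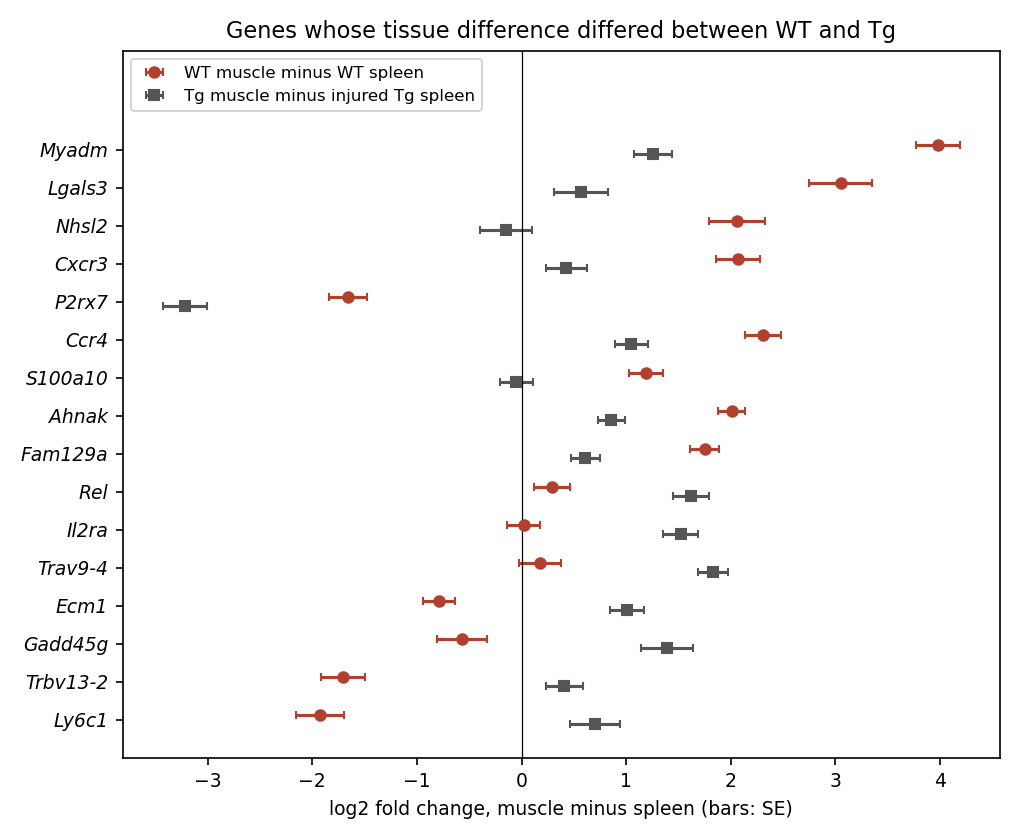
Log2 fold changes between muscle and spleen in WT (red circles) and Tg (grey squares) Tregs, with bars of 1 SE, for 16 of the 18 genes whose tissue effects differed; Igfbp4 is among those not drawn, because Tg muscle had 0 counts. Myadm is at 3.98 in WT and 1.26 in Tg, and Il2ra at 0.02 in WT and 1.52 in Tg.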

How the data were processed

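Reads from oligo(dT)-primed, Nextera XT libraries were aligned by the authors with STAR 2.5.4 to mm10 and counted per gene with featureCounts, per the submitters' processing notes. The annotation and the strandedness of counting were not given in the sources used here. The deposited values are raw counts for 52997 genes. In all, 10 Treg libraries (5 groups of 2, 5 residual degrees of freedom) were fitted together in edgeR 4.0.16 under R 4.3.3, after filtering on low counts by group and TMM scaling, with robust quasi-likelihood tests and Benjamini-Hochberg adjustment. Each SE is the absolute log2 fold change divided by the square root of the test's F statistic. It was thus derived from the test and not estimated separately. Alternatives were other scalings and filters, DESeq2 1.42.0, limma 3.58.1 (voom), a fit of the compared groups only, thinned counts, a minimum log2 fold of 1 and leaving out each library. On simulated counts for the comparison of WT muscle with WT spleen (13188 genes), the test found 41% of the genes changed 2-fold and 77% of those changed 4-fold, and 7.1% of its calls were false. The test of the difference of tissue effects made 6 false calls. Only genes above a set level were changed, far fewer than were called in the data, and each gene had the same spread in all groups. In the data the WT muscle replicates differed more than those of other groups, so these rates may not hold there.

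The gene lists and the rule for named genes were chosen with earlier results of these data known. The rule took the 15 largest called changes per direction among genes whose tissues did not overlap and whose mean log2 CPM reached 4, up to 6 called and 3 uncalled genes per list, preset genes and up to 10 genes of the WT and Tg difference; other genes named to complete a count were chosen after their values were seen. Coordinates are from GENCODE M21. A few genes counted among the lists and calls are not reported here by name.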

Additional observations from a re-analysis of the deposited data

Results flagged for a closer look

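The tissue effects of WT and Tg Tregs differed, by edgeR's test of the difference itself, for 18 genes. On simulated counts that test made 6 false calls. A larger muscle minus spleen value in WT was found for Myadm (difference of 2.72 on the log2 scale), Lgals3 (2.48), Nhsl2 (2.21), Cxcr3 (1.64), P2rx7 (1.55), Ccr4 (1.26), S100a10 (1.24), Ahnak (1.15) and Fam129a (1.14), and for Igfbp4 (6.45), whose fitted value is no bound because both Tg muscle libraries had 0 counts. A smaller value in WT was found for Ly6c1 (-2.63), Trbv13-2 (-2.12), Gadd45g (-1.96), Ecm1 (-1.79), Trav9-4 (-1.65), Il2ra (-1.50) and Rel (-1.33). Of 20 alternative settings, 20 called Myadm, 19 called Ecm1 and 19 called Ly6c1, while Cxcr3 was called in 8. With 2 libraries per group, single libraries within a group could not be tested for standing apart.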

How the results depend on the processing

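Of the counts of called genes, 2143 in all, the fit of the compared groups only gave 1046 (682 higher, 364 lower) and a required minimum log2 fold of 1 gave 391 (258 higher, 133 lower). Leaving out each WT library in turn gave 887 to 2768 called genes, 606 to 1407 higher and 281 to 1361 lower, and leaving out Tg libraries gave 1758 to 2072. Upper-quartile scaling moved the median of all genes from -0.04 to -0.11 and the calls to 1057 higher and 1017 lower (51% higher, against 57.7%), limma-voom gave 1328 and 1324 (50.1%). The 18 genes of the WT and Tg difference became 140 with no filter on low counts, 62 with DESeq2, 4 without robust dispersion, 4 with the compared groups only, 1 with the minimum fold, and 3 to 241 when single libraries were left out. The cause was not tested. Ms4a1 lay between -8.90 and 0 when single WT libraries were left out, with 0 without WT spleen replicate 2, the library that holds all its counts. Of the 2143 genes, 331 were called in all 16 alternatives.

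Deviations of replicate 1 from its group mean were hardly correlated between groups (-0.04 to 0.09). With 2 libraries per group, that cannot settle whether replicate numbers pair the samples. With the replicate block 2081 genes were called, 1219 higher and 862 lower, and 14 for the difference. With 2 libraries per group, a gene that did not pass may still differ, and 3 counts, the limit used for a gene at 0, corresponded to 0.368 to 1.44 CPM.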

Other observations

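Xist, which is transcribed from the inactive X chromosome, had 36 counts in WT spleen replicate 2 and at most 6 counts in each of the other 9 Treg libraries, while the Y-linked gene Ddx3y had 185 to 694 counts in all 10. WT spleen replicate 2 is also the library with high Igkc and plasma cell transcripts; whether these go together was not tested.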
